A study of Mus musculus with 6 samples.

Results

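The genes described here are 42 members of the cell division programme, followed across the cell types of mouse spinal cord. They were chosen by name, for their known roles in DNA replication and mitosis, and not by their values in these libraries. Earlier results of these data were known when the choice was made. All 42 were listed in the 6 deposited tables, among 17042 genes shared by them. The cells were sequenced by Drop-seq, in which each cell is caught in a droplet with a bead whose primers mark its RNA with the droplet's barcode, and each molecule with a random tag (unique molecular identifier, UMI), so that copies of 1 molecule count once. Wild-type mice given vehicle (WT-Veh), mice carrying the SOD1-G93A transgene given vehicle (SOD1-Veh) and mice of that genotype given Necrostatin-1s (SOD1-Nec) were represented by 2 libraries each. SOD1-G93A is a mutant form of superoxide dismutase 1 used to model amyotrophic lateral sclerosis, and Necrostatin-1s inhibits the kinase RIPK1. The sources used here give neither age, sex, dose and length of treatment nor the transgene's promoter. They do not say whether a group's libraries are separate animals, and the p-values therefore cover only the spread between these libraries, which may be technical.

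A dividing cell first licenses its replication origins with the MCM helicase and raises its nucleotide supply, copies its DNA on the PCNA clamp, and then enters mitosis under cyclins A and B, which activate Cdk1. Spindle motors, centromere proteins and the checkpoint then bring about the separation of chromosomes, and Cdc20 and Ube2c direct the destruction of the cyclins. Most of these genes are silent in resting cells. In adult spinal cord neurons do not divide, oligodendrocyte precursors and microglia divide at a low rate, and blood cell precursors divide fast in the bone marrow. The members were grouped by role: 7 cyclins and mitotic kinases, 6 checkpoint, anaphase and passenger proteins, 8 centromere, spindle and motor proteins, 5 proteins of chromosome structure, 5 enzymes of nucleotide supply, 8 genes of replication licensing and the clamp, and 3 genes of tubulin and its regulator. Stmn1, Hmgb2, Tuba1b and Tubb5 are also abundant in cells that do not divide, so sums are also given over the 38 other members.

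Genes of mitosis and of replication are known to be switched on by different promoter elements, the CCAAT box and the cell cycle homology region (CHR) for the former and E2F sites for the latter. RefSeq promoters (GRCm38.p6, 250 bases before to 50 bases after the start) were found for 35 of the 42 members. Motifs were searched on both strands as CCAAT for the CCAAT box, TTTGAA for the CHR, and TTTGGCGC, TTTCCCGC, TTTCGCGC or TTTGCCGC for the E2F site. These E2F letters can overlap each other on opposite strands, as they do in the Mcm6 promoter. The 120 bases before the start of 3 mitosis genes and 2 replication genes are shown in the direction of the gene, with each motif in capitals, to set promoters with both a CCAAT box and a CHR (the first 3) beside promoters with CCAAT boxes and no CHR. Mcm6 has its E2F sites among the bases shown, while those of Cdk1 and Mcm7 lie in the rest of the promoter window.
Cdk1 (chr10:69352913-69353032, minus strand): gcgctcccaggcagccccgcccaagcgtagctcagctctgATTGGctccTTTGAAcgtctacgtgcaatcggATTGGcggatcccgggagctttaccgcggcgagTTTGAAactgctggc
Ube2c (chr2:164769809-164769928, plus strand): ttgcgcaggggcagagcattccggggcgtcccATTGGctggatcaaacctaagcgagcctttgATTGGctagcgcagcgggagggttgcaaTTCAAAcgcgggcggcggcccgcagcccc
Top2a (chr11:99024190-99024309, minus strand): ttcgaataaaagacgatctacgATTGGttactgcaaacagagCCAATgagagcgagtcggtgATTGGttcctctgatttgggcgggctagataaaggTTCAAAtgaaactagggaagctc
Mcm6 (chr1:128359706-128359825, minus strand): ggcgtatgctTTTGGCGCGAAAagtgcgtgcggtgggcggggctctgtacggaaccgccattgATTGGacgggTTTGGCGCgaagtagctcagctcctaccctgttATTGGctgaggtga
Mcm7 (chr5:138171884-138172003, minus strand): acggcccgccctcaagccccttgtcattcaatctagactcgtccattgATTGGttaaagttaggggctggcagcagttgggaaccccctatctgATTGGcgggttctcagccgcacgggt
Over the whole promoter window, 13 of 19 mitosis genes (68.4%) held both a CCAAT box and a CHR, against 7.12% of all 27025 promoters. Those 13 included Cdk1, Ccnb2, Plk1 and Aurka of the cyclins and kinases, and Mki67 and Top2a. Of the 12 replication genes, 1 (Mcm2) held a CHR and 5 (41.7%) held an E2F site, against 2.32% of all promoters. The 5 were Mcm3, Mcm5, Mcm6, Mcm7 and 2810417H13Rik, which encodes the PCNA-associated factor Pclaf. The CCAAT box was in all 7 promoters of replication licensing and the clamp, against 37.9% of all promoters. These matches describe letters in a window and show no binding.

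The 6 tables held 21919 barcodes. Of these, 3360 had 200 or more detected genes and a mitochondrial share of UMIs of 20% or less, and 3331 were kept after 29 marked as doublets were left out. Retained cells numbered 395 to 791 per library, with a median of 524 to 727 UMIs. SOD1-Nec cells were the shallowest, at 527 and 524 UMIs. Libraries shared 25 barcodes, of which 1 was among the retained cells. The cells fell into 20 clusters, made without the members and without 146 other cell division genes. Names were given from marker genes to 19 clusters in 17 classes, and each name stands for cells resembling that type. Spinal cord types were present, with 658 microglia, 252 neurons, 207 oligodendrocytes and 160 astrocytes. One library stood apart in composition: WT-Veh 2 held 162 of the neurons. Muscle cells came from the SOD1-Veh libraries alone, 16 and 47 cells. Sod1 checked the genotype labels. Its level was 265 and 180 CPM (UMI counts scaled to a common library size by edgeR's TMM factors) in the WT-Veh libraries and 3887 to 6126 in the 4 SOD1 libraries.

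The cell division genes were concentrated in classes of blood cell precursors. The highest level was in the erythroid cluster led by Car1, a carbonic anhydrase of early red cell precursors, where the 38 members took 166 of every 10000 UMIs (95% Poisson interval 162 to 171, counting error only). In the 6 libraries the level of this cluster was 151 and 182 for WT-Veh, 212 and 134 for SOD1-Veh, and 180 and 167 for SOD1-Nec per 10000 UMIs, and the groups overlapped. At least 2 UMIs of the 38 members were found in 97 of its 99 cells. Myeloid progenitors, led by Elane and Mpo of the neutrophil granules, followed at 91.0 per 10000 UMIs, with 34 of 38 cells at 2 UMIs or more. Precursor B cells, led by Vpreb3, a gene of the B lineage in the marrow, reached 86.0 per 10000 UMIs with a smaller share of cells, 103 of 297 (34.7%). In the haemoglobin-led erythroid cluster, which holds later red cell precursors, the level was 52.9 and the share 58.0%. Monocytes had 45.2 per 10000 UMIs and immature neutrophils 37.2, with shares of 36.4% and 30.6%. Apart from 19 fibroblast-like cells, whose level of 46.8 rested on 1 cell with 77 of their 89 UMIs, these were the 6 highest classes, a grouping made after their values were seen.

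**Figure D1:**
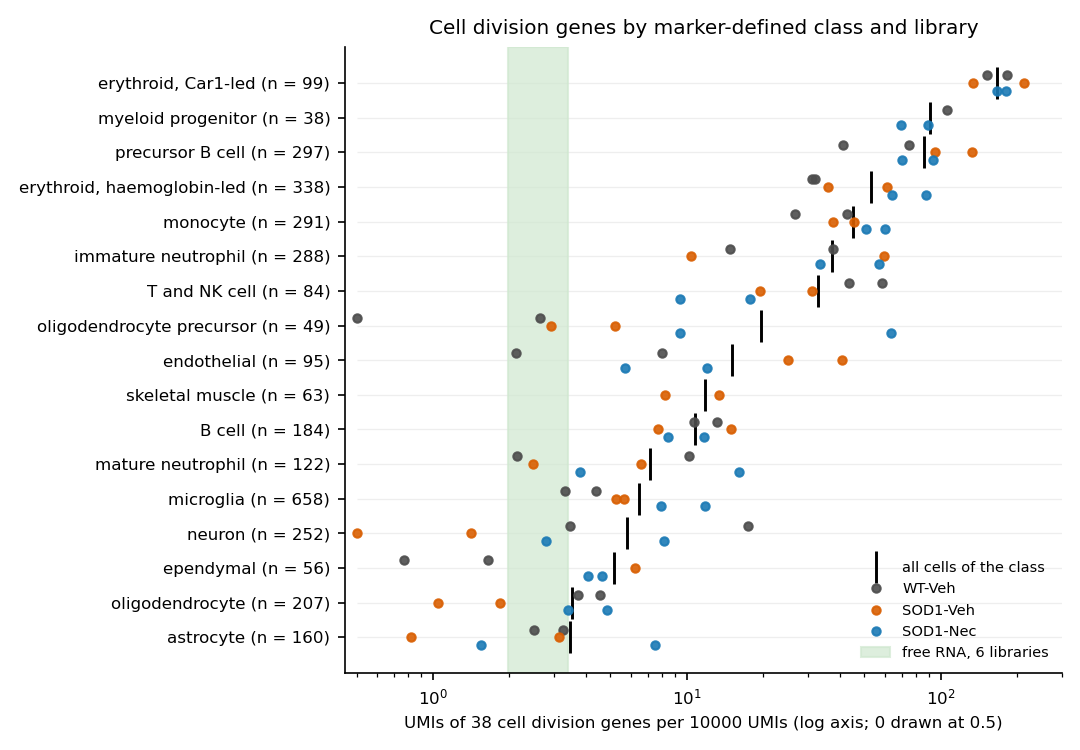
UMIs of 38 cell division genes per 10000 UMIs (log axis) in each class of at least 30 cells. Points are libraries with at least 5 cells of the class, coloured by group, and the black tick is the value over all cells. The green band is the range of barcodes with under 100 genes, taken as free RNA. A library with no UMI is drawn at 0.5. The Car1-led erythroid cluster lies highest, at 166, and the oligodendrocyte and astrocyte ticks, at 3.54 and 3.46, lie just above the free RNA band.

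These 6 classes held 1351 of 3331 cells (40.6%), 89.3% of the UMIs of the 38 members and 624 of the 812 cells (76.8%) with at least 2 of them. Depth differed between classes, with a median of 2178 UMIs in Car1-led cells, 496 in precursor B cells and 763 in oligodendrocytes. After each cell was thinned to 300 UMIs, the share with at least 2 UMIs was 86.9% in Car1-led erythroid cells, 57.9% in myeloid progenitors, 37.5% in haemoglobin-led erythroid cells, 28.1% in precursor B cells, 26.4% in monocytes and 19.4% in immature neutrophils. The 4 classes of mature neutrophils, neurons, oligodendrocytes and astrocytes had between 0.971% and 3.38%. Barcodes with under 100 genes, with no limit on UMIs or mitochondrial share, were taken as free RNA. They held many UMIs, 357977 in 1122 barcodes of WT-Veh 1 and 353251 in 639 of SOD1-Nec 2. That they hold free RNA alone was not tested. Their level was between 1.98 and 3.41 per 10000 UMIs in the 6 libraries. Astrocytes (3.46) and oligodendrocytes (3.54) were at about this level, neurons (5.80), microglia (6.49) and mature neutrophils (7.17) were above it, and 32 of the 76 neuronal UMIs came from 1 cell.

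Within the neutrophil and B cell lineages the earlier class had the higher level. Immature neutrophils, which carry the granule genes Camp, Ngp and Ltf, had 37.2 per 10000 UMIs against 7.17 in mature neutrophils, and the thinned shares were 19.4% and 1.64%. Precursor B cells had 86.0 against 10.8 in B cells, with thinned shares of 28.1% and 7.60%. The level of the mature class lay below that of the earlier class in each library of both lineages. A few cells held most of the UMIs of the 38 members in several classes. The 5 highest cells held 84.8% in ependymal cells, 63.2% in neurons, 55.6% in mature neutrophils, 53.1% in astrocytes and 52.9% in myeloid progenitors. In oligodendrocyte precursors, 1 cell carried 73 of 96 UMIs. In endothelial cells the 5 highest of 95 cells held 83.0% of the UMIs, and in T and NK cells the 5 highest of 84 cells held 68.6%.

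The balance of replication and mitosis genes differed between classes. The 23 mitosis genes had 2.02 times the UMIs of the 13 replication genes in Car1-led erythroid cells and 4.14 times in the haemoglobin-led cluster. The ratio was 3.56 in monocytes, 2.36 in immature neutrophils, 1.83 in precursor B cells and 1.43 in myeloid progenitors. It was lowest in oligodendrocytes (0.216), where 51 of the 62 UMIs of both sets were from replication genes. Among named classes it was also below 1 in microglia (0.489), T and NK cells (0.602), B cells (0.733), neurons (0.844) and astrocytes (0.929). Neurons had 27 mitosis against 32 replication UMIs and astrocytes 13 against 14, so no side is read for these classes. Of 94 Car1-led cells with at least 3 UMIs of these 23 and 13 genes together, 90 held UMIs of both sets. Mitosis genes alone were held by 3. Among 157 such haemoglobin-led cells, 107 held both sets and 45 held mitosis genes alone. A gene of either set can be missed at this depth, so cells with a single set are not a count of cells in 1 phase.

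**Figure D2:**
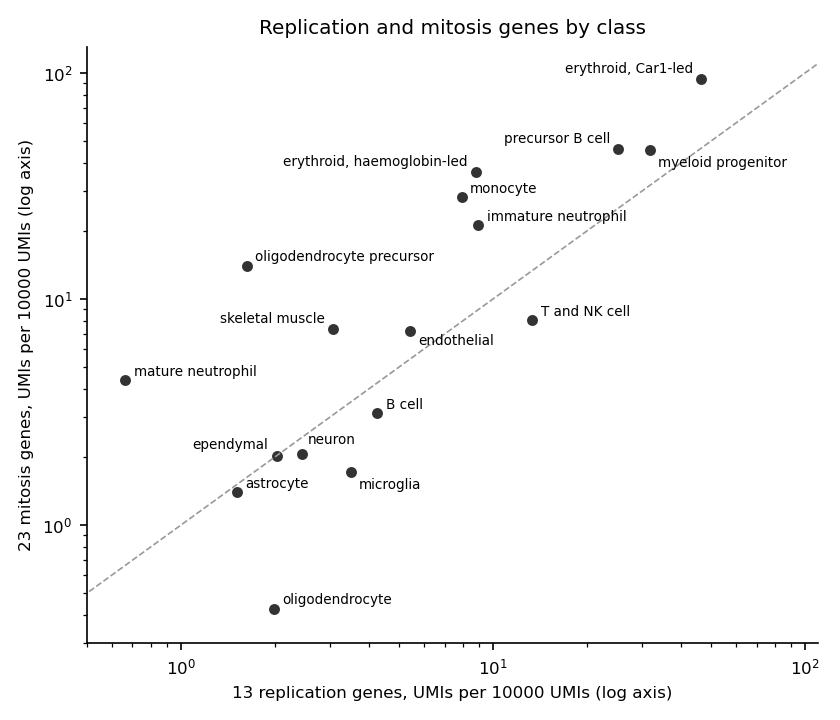
UMIs per 10000 UMIs of 13 replication genes (horizontal, log axis) and 23 mitosis genes (vertical, log axis) in each class of at least 30 cells, with equality as the dashed line. The haemoglobin-led erythroid cluster, at a ratio of 4.14, lies further above the line than the Car1-led cluster, at 2.02, and oligodendrocytes lie below it, at 0.216.

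Single members were mostly high in these classes, in differing order. Among classes of at least 30 cells, the Car1-led cluster was highest for 31 of the 42, myeloid progenitors for 6, precursor B cells for 4 and oligodendrocytes for 1. In the 19 fibroblast-like cells, where 1 cell held most UMIs, Cenpf (5.25 per 10000 UMIs) and Ccnb1 (2.10) were above the Car1-led cluster (4.82 and 1.57). For 36 members, at least 80% of UMIs were in the 6 highest classes, with a median of 88.8% over all 42. Birc5, the passenger protein survivin, was highest in this respect, at 96.8% of 593 UMIs. Mki67, the gene of the proliferation marker Ki-67, had 19.3 UMIs per 10000 UMIs in Car1-led cells, 7.25 in haemoglobin-led cells, 6.55 in precursor B cells, 0.292 in microglia and 0 in oligodendrocytes. No UMI of it in 207 oligodendrocytes allows a share of cells with a UMI of up to 1.45%. Top2a, the topoisomerase that untangles sister chromatids, had 11.5 in Car1-led cells and 9.53 in precursor B cells. 2810417H13Rik was highest in precursor B cells, at 10.3 per 10000 UMIs against 4.11 in Car1-led cells. Ube2c, the ubiquitin-conjugating enzyme of the anaphase-promoting complex, had 9.43 in Car1-led cells, 5.64 in the haemoglobin-led cluster and 1.82 in myeloid progenitors.

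Of the 4 broadly expressed members, Stmn1 was the least concentrated in the 6 classes. Stmn1, a regulator of microtubules, was highest in oligodendrocytes, at 16.2 per 10000 UMIs with a UMI in 57.5% of cells, against 5.75 in Car1-led cells. Oligodendrocytes held 418 of its 1347 UMIs, and the 6 highest classes 47.8%. Hmgb2, a chromatin protein, had 87.5% of its UMIs in the 6 highest classes. It was also found in mature neutrophils at 16.1 per 10000 UMIs, in 52.5% of cells, but in 5.31% of oligodendrocytes, 1.98% of neurons and 1.25% of astrocytes. Tuba1b and Tubb5, a pair of tubulin genes, had 68.2% and 72.5% of their UMIs in the 6 highest classes. Pcna was the least concentrated of the other members, at 71.5%. It had 1.75 per 10000 UMIs in microglia and 1.71 in oligodendrocytes, where it gave 44 of the 51 replication UMIs.

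**Figure D3:**
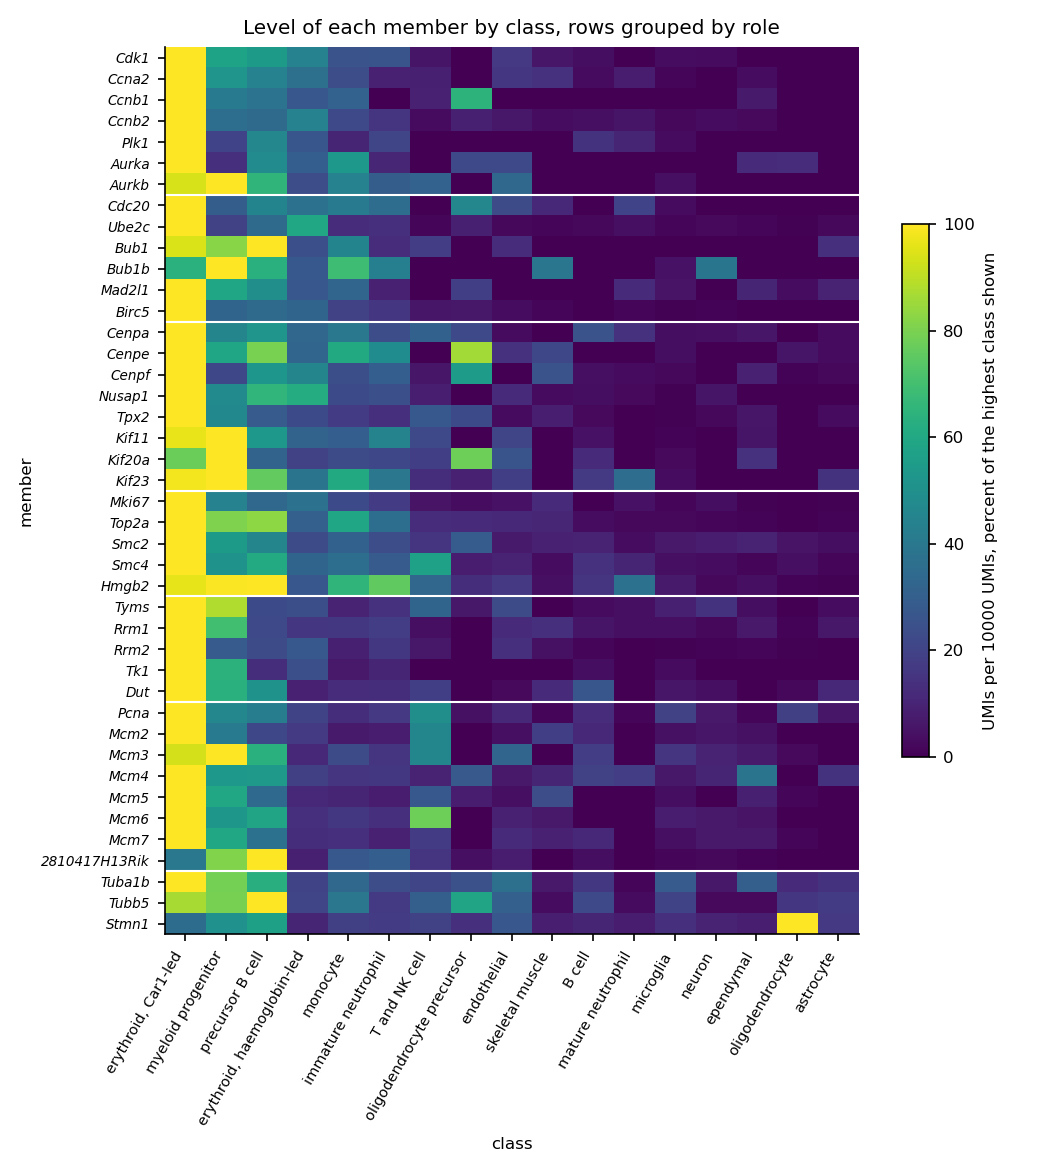
Each row is 1 of the 42 members, grouped by role, and each column a class of at least 30 cells. Colour gives UMIs per 10000 UMIs as a percent of that row's highest class shown. The left columns, the precursor classes, are brightest for all rows except Stmn1, which is brightest in oligodendrocytes at 16.2 per 10000 UMIs.

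The genotype comparison asked how mutant SOD1 libraries differed from wild-type ones under vehicle. No member passed the edgeR quasi-likelihood test over all cells, although nearly all fitted differences were positive. The members took 61.7 and 42.0 of every 10000 UMIs in WT-Veh (51.9 ± 13.9, SD, n = 2) and 75.1 and 75.6 in SOD1-Veh (75.4 ± 0.291). Both SOD1-Veh libraries lay above both WT-Veh libraries. Of 41 members tested (Bub1b was too low), 39 had a positive log2 fold change, with a median of 0.65 against 0.01 over all 7482 genes tested. None had an adjusted p below 0.05, where 0.829% of all genes did (62 genes, and 6 once the muscle cells of SOD1-Veh were left out), and 8 had an unadjusted p below 0.05. The share of all genes with an unadjusted p below 0.05 was not counted, here or in the comparisons below. Such counts are therefore not read as an excess among the members. DESeq2 also called none. Without the muscle cells the members' median was 0.71 and 13 had an unadjusted p below 0.05. The smallest p among members was that of Plk1, the kinase that drives mitotic entry and spindle assembly, at 9.61 and 12 CPM for WT-Veh and 38.8 and 40.4 for SOD1-Veh (log2 fold change 1.85 ± 0.48 SE, edgeR adjusted p = 0.128). For 22 members both SOD1-Veh libraries were above both WT-Veh libraries, and for none were both below. Over all genes tested, 20% had both SOD1-Veh libraries higher and 18.8% both lower.

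This comparison leaned on the difference between the WT-Veh libraries. Without WT-Veh 1 the median was 1.04, and the log2 fold change of Ccnb2, a mitotic cyclin, was 1.90 ± 0.42 SE. With WT-Veh 2, in which neurons were most frequent, left out instead, the median was 0.28. The 6 highest classes were 40.6% and 25.5% of WT-Veh cells and 34.9% and 37.2% of SOD1-Veh cells. With class shares held at the mean of the 6 libraries, the members' level was 45.5 and 49.8 per 10000 UMIs for WT-Veh and 68.5 and 58.4 for SOD1-Veh. That setting took erythroid cells as 1 class and left out myeloid progenitors, so the mix of erythroid clusters was not held. Sums over all cells move with class composition, and the part of composition in the single members' differences was not tested.

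The treatment comparison asked how Necrostatin-1s libraries differed from vehicle libraries of the mutant genotype. No member passed here either, and the fitted differences went both ways. The members' level was 76.7 and 85.1 per 10000 UMIs in SOD1-Nec (80.9 ± 5.96, n = 2). Of 41 members, 24 were positive with a median log2 fold change of 0.11, none was called by edgeR or DESeq2 against 0.548% of all genes in edgeR (41 genes, and 0 without the muscle cells), and 1 had an unadjusted p below 0.05 in edgeR. That gene was Rrm2, the regulated subunit of ribonucleotide reductase, at 177 and 195 CPM for SOD1-Veh and 97.6 and 135 for SOD1-Nec (log2 fold change -0.67 ± 0.31 SE, edgeR adjusted p = 0.704). Both SOD1-Nec libraries were above both SOD1-Veh libraries for 12 of the 41 members and below them for 5. Over all genes tested the shares were 20% above and 20.6% below. Without SOD1-Nec 2 the median was -0.17. SOD1-Nec was also compared with WT-Veh, with which it shares neither genotype nor treatment. There 40 of 41 were positive with a median of 0.60, none was called against 0.0401% of all genes, and 15 had an unadjusted p below 0.05. Both SOD1-Nec libraries were above both WT-Veh libraries for 26 members and below them for 0, against 19.1% above and 19.9% below over all genes tested. The members' median in this comparison was 1.17 without WT-Veh 1 and 0.36 without WT-Veh 2. DESeq2 called 1 member, Top2a (log2 fold change 1.38 ± 0.33 SE, adjusted p = 0.00495), whose edgeR adjusted p was 0.165. The 3 comparisons share their groups in pairs, so they are not independent of each other. On simulated counts for the genotype comparison, the edgeR test recovered 83 of 100 genes changed 4-fold and 13 of 100 changed 2-fold. The changed genes had at least 100 UMIs, and their spread was fixed beforehand, not taken from these libraries. Some members lie below that count, such as Plk1 with 83 UMIs, so these are not recovery rates for the members.

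**Figure D4:**
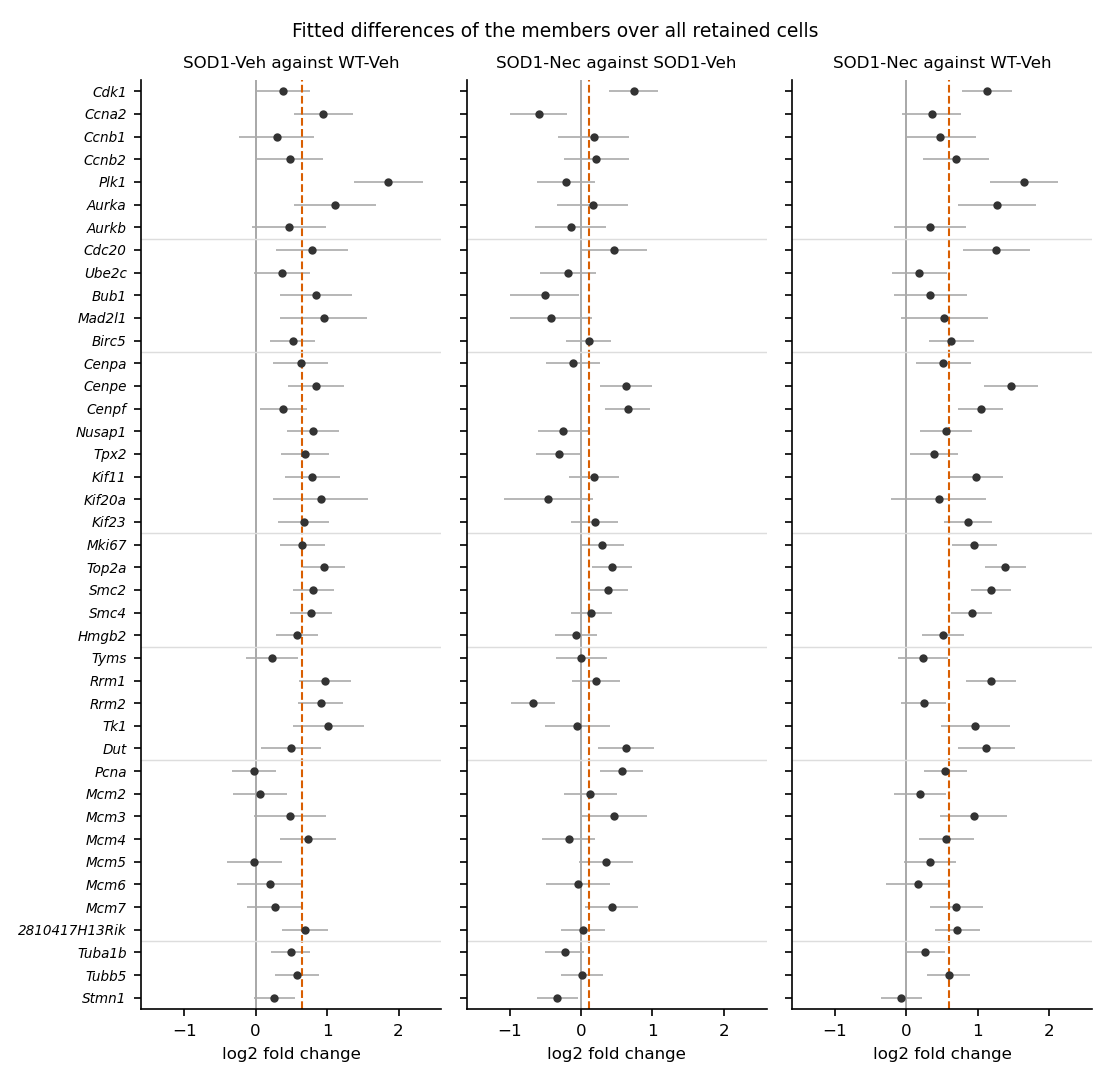
Fitted log2 fold changes of 41 members over all retained cells, grouped by role, with 1 SE on each side, in the 3 comparisons. The dashed orange line is the members' median, at 0.65, 0.11 and 0.60, and no member had an adjusted p below 0.05 in any panel.

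By role, levels over all cells are given in CPM for WT-Veh 1 and 2, SOD1-Veh 1 and 2 and SOD1-Nec 1 and 2 in that order. Among cyclins and mitotic kinases, Ccnb2 was at 136, 31.9, 99.5, 136, 140 and 134. Ccna2, the cyclin of S phase and mitotic entry, was at 80.7, 31.9, 92.2, 126, 61.2 and 83.1. For both cyclins WT-Veh 2 was the lowest library, and WT-Veh 1 lay within the range of the SOD1 libraries. All 7 of this role were positive in both comparisons with WT-Veh and 4 in the treatment comparison. In the checkpoint, anaphase and passenger group, Ube2c was at 307, 108, 255, 281, 216 and 256, and its WT-Veh values spanned all others. Birc5 was at 179, 118, 201, 224, 184 and 274, with both WT-Veh libraries lowest. Of the 8 centromere, spindle and motor genes, all were positive in both comparisons with WT-Veh. Nusap1, which bundles spindle microtubules, was at 142, 83.8, 131, 264, 168 and 165, and the SOD1-Veh libraries lay on both sides of WT-Veh 1. Cenpf, a large kinetochore protein, was at 115, 69.9, 138, 105, 193 and 189, where both SOD1-Nec libraries were highest. Cenpe, a kinesin that carries chromosomes to the spindle equator, was at 86.5, 41.9, 150, 80.9, 178 and 179, with both SOD1-Nec libraries highest and WT-Veh and SOD1-Veh overlapping.

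Among the 5 genes of chromosome structure, 4 had the same order of groups. Mki67 was at 382, 212, 519, 416, 547 and 603. Top2a was at 206, 186, 451, 307, 528 and 497. These genes act in the packing and separation of mitotic chromosomes. Smc4, a condensin subunit, was at 423, 268, 621, 559, 662 and 642. Smc2, its partner in condensin, was at 121, 140, 257, 200, 295 and 300. In each of these 4 genes the WT-Veh libraries were the 2 lowest and the SOD1-Nec libraries the 2 highest. The share of all genes tested with this order of the 3 groups was not counted, so the order is not read as particular to this role. Top2a had the smallest p of all members against WT-Veh in SOD1-Nec (log2 fold change 1.39 ± 0.29 SE, edgeR adjusted p = 0.165). Hmgb2 was at 1646, 974, 1881, 2045, 1702 and 2035.

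In nucleotide supply, Rrm2 was at 117, 79.9, 177, 195, 97.6 and 135, highest in SOD1-Veh. Dut, which keeps uracil out of DNA by breaking down dUTP, was at 74.9, 31.9, 60.7, 90.4, 97.6 and 135, with both SOD1-Nec libraries highest. Replication licensing and the clamp had the smallest median difference of the 7 roles between SOD1-Veh and WT-Veh, 0.23, with 6 of 8 positive. Pcna was at 248, 164, 211, 195, 253 and 349, with its SOD1-Veh values between those of WT-Veh. 2810417H13Rik was at 177, 114, 199, 269, 203 and 274, with both WT-Veh libraries lowest. Of the tubulin group, Tuba1b was at 471, 339, 536, 602, 501 and 469, highest in SOD1-Veh. Stmn1 was at 432, 433, 430, 606, 350 and 473, and its groups overlapped.

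The share of cells with at least 2 UMIs of the 38 members was 20.1% and 15.7% for WT-Veh, 21.8% and 23% for SOD1-Veh and 30.7% and 29.96% for SOD1-Nec. The group means were 17.9% ± 3.12, 22.4% ± 0.885 and 30.3% ± 0.521 (SD, n = 2), and the groups did not overlap. After thinning to 300 UMIs per cell, which left out 12 to 36 cells per library, the shares were 11.9% and 8.05%, 14.6% and 13.2%, and 22.3% and 21.1%. With class shares held at the mean of the 6 libraries, they were 19.9% and 24.0%, 21.9% and 19.4%, and 27.0% and 25.4%. The WT-Veh and SOD1-Veh ranges then overlapped and SOD1-Nec stayed above both. Erythroid cells counted as 1 class there and myeloid progenitors were left out, so the mix of erythroid clusters was not held. Car1-led cells made up a mean of 2.32% of WT-Veh, 2.90% of SOD1-Veh and 3.56% of SOD1-Nec cells. The 6 highest classes made up 48.2% and 49.3% of SOD1-Nec cells, the largest shares of the 6 libraries. Over all 42 members the order was different, at 41.3% and 31.3%, 42.5% and 47.2%, and 42.9% and 43.2%. These shares are a description, with no test.

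**Figure D5:**
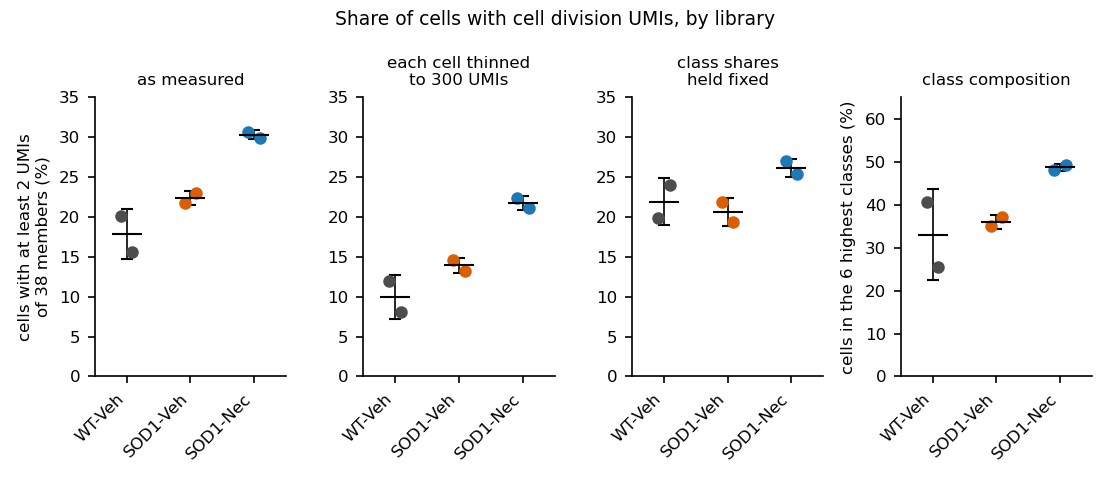
Share of cells with at least 2 UMIs of 38 members in each library (points; horizontal bar, mean; whiskers, SD of 2 libraries), as measured, after thinning and with class shares held fixed, and at right the share of cells in the 6 highest classes. SOD1-Nec libraries, at 30.7% and 29.96% as measured, lie highest in each panel, and with class shares held fixed WT-Veh and SOD1-Veh overlap.

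Within classes no member was called in any comparison. Erythroid cells, both clusters together, had 36 members high enough to test, and the background of called genes was 0.0755% for SOD1-Veh against WT-Veh, 1.36% for SOD1-Nec against SOD1-Veh and 2.42% for SOD1-Nec against WT-Veh. The members' medians were 0.18, -0.12 and 0.09 (the last -0.02 without SOD1-Nec 1), and 2, 4 and 2 had an unadjusted p below 0.05. Ube2c in these cells was at 1090 and 850 CPM for WT-Veh, 909 and 787 for SOD1-Veh and 552 and 576 for SOD1-Nec, and the SOD1-Nec libraries were lowest (log2 fold change against WT-Veh -0.80 ± 0.25 SE, edgeR adjusted p = 0.108). In that comparison its log2 fold change was -0.84 without SOD1-Veh 1 in the shared fit and -0.89 without SOD1-Veh 2. Rrm2 was at 353 and 529 for WT-Veh, 615 and 545 for SOD1-Veh and 295 and 291 for SOD1-Nec, also lowest in SOD1-Nec (log2 fold change against SOD1-Veh -0.98 ± 0.30 SE, edgeR adjusted p = 0.149). Without SOD1-Veh 1, the erythroid log2 fold change was 1.52 for Pcna in the treatment comparison and 0.93 for Smc2 in SOD1-Nec against WT-Veh. In the haemoglobin-led cluster the 38 members had 31.1 and 31.9 per 10000 UMIs for WT-Veh, 36.0 and 61.4 for SOD1-Veh and 87.5 and 64.4 for SOD1-Nec. Both SOD1-Nec values were highest, beside the lowest median depths of this cluster, 695 and 769 UMIs against 1522 to 2036, and the part of depth was not tested.

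Monocytes had 10 members tested, all positive in SOD1-Nec against WT-Veh with a median of 0.49 and 4 with an unadjusted p below 0.05. Leaving out 1 library at a time moved that median between 0.36 and 1.05, the latter without WT-Veh 2. The backgrounds were 1.53%, 1.27% and 0.127% in the same order of comparisons. The 38 members had 26.7 and 42.5 per 10000 UMIs for WT-Veh, 45.4 and 37.4 for SOD1-Veh and 60.4 and 50.6 for SOD1-Nec, highest in SOD1-Nec. Once WT-Veh 2 was left out, the log2 fold change of Top2a in SOD1-Nec against WT-Veh was 1.88 ± 0.49 SE. In immature neutrophils all 8 members tested were positive in SOD1-Veh against WT-Veh (median 0.82), 4 in SOD1-Nec against SOD1-Veh (-0.05) and 8 in SOD1-Nec against WT-Veh (0.49). The first turned to 2 of 11 positive (median -1.11) without SOD1-Veh 1 and to 8 of 15 (0.0072) without WT-Veh 1. Without SOD1-Veh 1 the second turned to 10 of 11 positive (1.88), and the third was 7 of 15 (-0.067) without WT-Veh 1. The level of the 38 members overlapped between groups, at 14.8 and 37.7, 59.5 and 10.4, and 33.4 and 57.2 per 10000 UMIs. The backgrounds there were 0.155%, 0.465% and 0.155%. Without WT-Veh 2 the log2 fold change of Smc4 in SOD1-Nec against WT-Veh was 2.38.

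In microglia, the resident macrophages of the cord, 5 members were high enough to test (Hmgb2, Pcna, Stmn1, Tuba1b and Tubb5), and the backgrounds were 2.00%, 4.50% and 7.18%. Pcna was at 186 and 147 CPM for WT-Veh, 261 and 373 for SOD1-Veh and 290 and 180 for SOD1-Nec (log2 fold change of SOD1-Veh against WT-Veh 0.91 ± 0.44 SE, edgeR adjusted p = 0.425). The 38 members together had 3.30 and 4.40 per 10000 UMIs for WT-Veh, 5.65 and 5.24 for SOD1-Veh and 11.8 and 7.94 for SOD1-Nec. The 3 groups did not overlap, on sums of 26 to 99 UMIs a library, beside free RNA at 1.98 to 3.41. Microglia with at least 2 such UMIs numbered 5 of 101, 6 of 97, 10 of 84, 7 of 82, 20 of 128 and 13 of 166 in the order of libraries above.

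Precursor B cells had 19 to 103 cells per library and were fitted as an addition made after the data were seen. Of 16 members tested, 15 were positive in SOD1-Veh against WT-Veh with a median of 1.14, and 12 had an unadjusted p below 0.05. None was called, and 0.448% of all genes were; in the other comparisons 1.35% (SOD1-Nec against SOD1-Veh) and 1.05% (SOD1-Nec against WT-Veh) were called. Tuba1b had the smallest p, at 734 and 799 CPM for WT-Veh, 1821 and 2500 for SOD1-Veh and 1497 and 1097 for SOD1-Nec (log2 fold change of SOD1-Veh against WT-Veh 1.504 ± 0.43 SE, edgeR adjusted p = 0.133). Both SOD1-Veh libraries were highest. In SOD1-Veh against WT-Veh the members' median was 0.80 without WT-Veh 1 and 1.77 without WT-Veh 2. It was 1.06 without SOD1-Veh 1 and 1.39 without SOD1-Veh 2. Against SOD1-Veh, 14 of 16 members were negative in SOD1-Nec, with a median of -0.45 and 3 with an unadjusted p below 0.05. This median was -0.15 without SOD1-Veh 1 and -0.92 without SOD1-Veh 2. The level of the 38 members was 41.3 and 74.7 per 10000 UMIs for WT-Veh, 132 and 94.9 for SOD1-Veh and 93.1 and 70.1 for SOD1-Nec. Single cells weighed on it, with 100 of 392 UMIs in 1 cell of SOD1-Veh 1 and 131 of 395 in 1 cell of SOD1-Veh 2. In T and NK cells, 3 of 13, 3 of 13, 6 of 11, 5 of 10, 3 of 18 and 3 of 19 cells had at least 2 UMIs of the 38 members, in the order of libraries above. The levels of these cells had another order, at 43.4 and 58.8, 19.4 and 31.1, and 17.7 and 9.39 per 10000 UMIs, with 42 of 53 and 72 of 90 UMIs of the WT-Veh libraries in 1 cell each, so no order of groups is read from either.

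Other genes of the pathway were taken from 5 lists, and none of their genes was called in any of the 3 comparisons over all cells. The gene with the smallest p of each list and comparison had an edgeR adjusted p between 0.0759 and 0.746. Of 46 tested genes of mitosis that are no members, 41 were positive in SOD1-Veh against WT-Veh (median 0.52), 24 in SOD1-Nec against SOD1-Veh (0.01) and 40 in SOD1-Nec against WT-Veh (0.70). Anln, which builds the cleavage furrow and is also known from oligodendrocytes, went against its list in the genotype comparison, at 99.9 and 102 CPM for WT-Veh and 41.3 and 45.2 for SOD1-Veh (log2 fold change -1.22 ± 0.34 SE, edgeR adjusted p = 0.159). Of 36 other replication genes, 31, 19 and 34 were positive in the same order, with medians of 0.58, 0.11 and 0.55. Slbp, which binds the stem-loop of histone mRNAs in S phase, was at 48.0 and 33.9 CPM for WT-Veh, 97.1 and 140 for SOD1-Veh and 67.0 and 75.0 for SOD1-Nec (log2 fold change of SOD1-Veh against WT-Veh 1.53 ± 0.36 SE, edgeR adjusted p = 0.0759). The 7 tested transcription factors of the cell cycle had 5, 3 and 6 positive, among them Myb, a factor of blood precursors (1.38 ± 0.40 SE in SOD1-Nec against WT-Veh, edgeR adjusted p = 0.371). Of 5 tested cyclins and kinases of G1, 4, 4 and 5 were positive, with medians of 0.11, 0.14 and 0.51. Ccnd2 was at 46.1 and 28.5 CPM for SOD1-Veh and 132 and 50.5 for SOD1-Nec (1.27 ± 0.51 SE, edgeR adjusted p = 0.629). Of 12 tested inhibitors and antiproliferative genes, 9, 5 and 5 were positive. Btg2, which restrains entry into S phase, was at 1036 and 678 for SOD1-Veh and 456 and 608 for SOD1-Nec (-0.69 ± 0.29 SE, edgeR adjusted p = 0.660).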

How the data were processed

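Each library has 1 deposited table of raw UMI counts, genes by cell barcodes, made by the authors on mm9, per the submitters' processing notes; the aligner is not given in the sources used here. Per the labels' protocols, tissue was dissociated with Accutase, freed of myelin and purified on a density gradient. Libraries held 429821 to 650663 UMIs in retained cells. Barcodes with at least 200 genes and a mitochondrial share up to 20% were kept, and 29 marked by Scrublet (in scanpy 1.11.5) were left out. Cells were clustered (2000 variable genes, 30 components, 15 neighbours, Leiden resolution 1; leidenalg 0.10.2) without the members and the other cell division genes, and clusters were named from 26 marker lists of 291 genes where at least 3 markers led. UMIs were summed per library, over all cells and within classes of at least 20 cells in every library, and tested in 1 fit of the 6 libraries by group with edgeR 4.0.16 (quasi-likelihood, TMM factors, low counts filtered, Benjamini-Hochberg adjustment over all genes tested, threshold 0.05). The edgeR test was tested on simulated data first. DESeq2 1.42.0, other scalings and filters, other cell filters, leaving out each library, thinning to 300 UMIs and class shares held fixed over 13 classes were the alternatives. Those 13 took erythroid cells as 1 class and left out myeloid progenitors. With 2 libraries against 2, an exact permutation test of 1 value cannot give a p below 0.333, so sums over members were not tested. Intervals are exact and cover counting error only. Values are given by role for the 2 members with the most UMIs, for Mki67 and Top2a, for Smc2 and Cenpe, which were called over all cells only in an alternative fit, and for the gene of smallest p in each other list; Plk1, Rrm2 and Pcna in microglia and Tuba1b in precursor B cells were chosen after their values were seen. The members and lists were chosen with earlier results of these data known.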

Additional observations from a re-analysis of the deposited data

Results flagged for a closer look

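Barcodes outside the retained cells held cell division UMIs above the wild-type level in both SOD1-Nec libraries. Among barcodes with at least 200 genes but a mitochondrial share over the limit, the 38 members had 3.64 and 2.64 per 10000 UMIs in SOD1-Nec, on 49 and 29 UMIs. The WT-Veh libraries had 1.48 and 2.23 there, and the SOD1-Veh libraries 1.86 and 2.00. Among barcodes with at least 100 but under 200 genes, the SOD1-Nec libraries had 11.8 and 11.0 per 10000 UMIs, against 5.44 and 3.85 for WT-Veh and 2.38 and 4.35 for SOD1-Veh. These low-gene barcodes were also more frequent in SOD1-Nec, at 837 and 734 against 519 and 567 for WT-Veh and 280 and 227 for SOD1-Veh. Free RNA, from barcodes with still fewer genes, had 3.41 and 2.63 in SOD1-Nec, 2.49 and 2.20 for WT-Veh, and 1.98 and 3.01 for SOD1-Veh, so SOD1-Nec and SOD1-Veh overlapped there. The part of free RNA and of shallow cells in these values was not tested.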

How the results depend on the processing

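With 2 libraries a group, the tests can miss changes near 2-fold, and shallow cells can lack UMIs of members they express. Without a count of separate animals, the spread may be technical. No member was called over all cells or within classes by edgeR, and another scaling of the libraries, no filter on low counts, other limits on genes or mitochondrial UMIs, and doublets or muscle cells treated otherwise left the counts they were run for at 0. Over all cells, SOD1-Nec against WT-Veh, DESeq2 called 1 member. Leaving out 1 library at a time gave 0 to 1 calls over all cells for SOD1-Veh against WT-Veh and for SOD1-Nec against WT-Veh, and within classes 0 to 1 for SOD1-Nec against SOD1-Veh and 0 to 2 for SOD1-Nec against WT-Veh. In precursor B cells, added after seeing the data, it gave 0 to 3, 0 to 1 and 0 calls for SOD1-Veh against WT-Veh, SOD1-Nec against SOD1-Veh and SOD1-Nec against WT-Veh. A fit without 1 library leaves 1 library in a group, and the shares called over all genes in such fits are not given. These counts are therefore not read as results about the members. The replicate numbers of the labels did not pair the libraries: over 10844 genes the deviations of same-numbered libraries correlated at -0.102 for WT-Veh and SOD1-Veh, -0.169 for WT-Veh and SOD1-Nec, and 0.109 for SOD1-Veh and SOD1-Nec. The replicate block gave 0 calls in each comparison, and crossed numbers, chosen after seeing the data, gave 3 for SOD1-Nec against WT-Veh. The log2 ratio of the share of cells with at least 2 UMIs of the 42 members moved most. For SOD1-Nec against SOD1-Veh it was -0.06 as measured, 0.15 with at least 3 UMIs, 0.52 after thinning, -0.17 with class shares fixed, 0.13 for cells of at least 400 genes and 0.029 with the mitochondrial limit at 40%, and -0.13 to 0.017 leaving out 1 library at a time. Over the 38 members it was 0.44, 0.64 after thinning and 0.34 with class shares fixed. For SOD1-Nec against WT-Veh it was 0.24 as measured, 0.72 after thinning, -0.078 with class shares fixed, and over the 38 members 0.76, or 1.12 after thinning. For SOD1-Veh against WT-Veh it was 0.30 as measured and -0.086 over the 38 members with class shares fixed. The log2 ratio of their level for SOD1-Nec against SOD1-Veh was 0.10 over the 42 members and 0.22 over the 38. The causes of these shifts were not tested. With both erythroid clusters taken as 1 class, the class with the highest level of the 42 members was the myeloid progenitors, at 159.9 per 10000 UMIs. Without WT-Veh 1 (164) or SOD1-Veh 2 (149.8) it was the precursor B cells. Precursor B cells also came first at Leiden resolution 0.5 (167), where no cluster was named myeloid progenitor. They came first as well without SOD1-Nec 1 (153) or SOD1-Nec 2 (170.1), which held 9 and 15 of the 38 myeloid progenitors. Either loss left myeloid progenitors under the 30 cells needed for ranking, so the classes were not compared there. Over the 38 members the erythroid cells were highest (95.4).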
